A study of Bos taurus with 56 samples.

Results

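The regions described here are stretches of cattle (Bos taurus) DNA that were accessible in embryos at the 8-cell and the 16-cell stage and in no other stage of the series. They were chosen by the peaks themselves: overlapping peaks of all 11 deposited lists (1 bp or more) were joined into 482097 regions, and those with peaks in exactly the 8-cell and 16-cell lists were kept. This gave 4945 regions, 1.03% of all regions, a share that the rule itself fixes. Their presence in these lists and their absence from the others is thus a description and not a finding. Absence means that no peak was called, not that the DNA was closed.

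Accessibility was measured by ATAC-seq, which sequences the DNA that a transposase can reach. The series holds 56 libraries of pooled oocytes or embryos, namely GV oocytes (6 libraries), MII oocytes (5), 2-cell (6), 4-cell (6), 8-cell (5) and 16-cell embryos (5), morulae (6), morulae derived in vivo (4), blastocysts (3), blastocysts derived in vivo (4) and day 14 elongating embryos (6). The sources used here do not state breed or sex, or how the embryos without an in vivo label were produced. Each group has 1 list of merged peaks with positions and nothing else, so depth is unknown, libraries of a group cannot be compared, and no test between stages was possible. Intervals below are 95% intervals for counting error alone and treat regions as independent.

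The bovine embryo lives on maternal RNA and protein through its first cleavages and starts major transcription of its own genome around the 8-cell to 16-cell stage. Accessible DNA outside nucleosomes is where promoters, enhancers and other regulatory elements bind transcription factors. After this window the blastomeres compact into a morula, and the first lineages, inner cell mass and trophectoderm, separate in the blastocyst. Lists differed greatly in length: the 8-cell list held 59186 peaks, the 16-cell list 75925, the morula lists 88858 and 57039 (in vivo) and the day 14 list 372509, whereas the oocyte, 2-cell, 4-cell and blastocyst lists held 730 to 5810. The morula and day 14 lists thus hold most of the peaks that could keep a region out.

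Most regions with both an 8-cell and a 16-cell peak had a peak later as well. Of 25114 regions with peaks of both stages, the 4945 found nowhere else made up 19.7% (interval 19.2% to 20.2%). Where both peaks of these regions had to cover 50% of each other, 2669 were left, or 10.6% of the 25114. The 25114 were not filtered in this way, so this share had to be lower. Without the morula list that lacks the in vivo label there were 7958 regions. A further 5114 (20.4%) had a peak in at least 1 morula list and nowhere else, 10842 (43.2%) had both a morula and a day 14 peak, and 1566 (6.24%) had a day 14 peak and no further list. The remaining 2647 (10.5%) had a peak in an oocyte, 2-cell, 4-cell or blastocyst list. Taken list by list, 71.2% of the 25114 regions overlapped a morula peak, 52.1% an in vivo morula peak and 59.1% a day 14 peak, against 6.21% for the 4-cell list and 2.56% and 2.53% for the blastocyst lists. With list length so unequal, these shares do not rank the stages. Below, the 5114 regions with a morula peak and no other list are called 8-cell-to-morula regions, and the 1566 with a day 14 peak and no other list 8-cell, 16-cell and day 14 regions. Both leave out the 10842 regions with morula and day 14 peaks. In these 2 classes and among the 25114, a further peak can join 8-cell and 16-cell peaks that share 0 bp. In the regions found nowhere else these peaks share at least 1 bp.

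Among pairs of lists, the 8-cell and 16-cell stages shared many regions with each other alone. Exactly 2 lists held 40931 regions, spread over 51 of 55 possible pairs. The 8-cell and 16-cell pair ranked 3 by number, behind the pairs of the morula and day 14 lists (9512 regions) and of the 16-cell and day 14 lists (5643). It stood just above the pair of both morula lists (4627). Per 1000 peaks of the shorter list, the 8-cell and 16-cell pair held 83.6 regions and the morula pair 81.1. On this scale 6 pairs stood higher, all with the day 14 list: GV (154), 4-cell (130), blastocyst (127), 2-cell (126), morula (107) and MII (91.8). The 16-cell stage shared 47.2 regions per 1000 with the morula alone, the 8-cell stage 22.7 with the morula alone, and the 4-cell stage 16.7 with the 8-cell stage alone. These counts depend on which other lists could take a region away from a pair, and the pair of the 4-cell and 8-cell stages had only 97 regions in all.

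Narrow regions were found nowhere else more often than wide ones. The 4945 regions were 738 bp wide at the median (interval 725 to 750 bp), ran from 227 to 7073 bp, and covered 4.08 Mb or 0.153% of the 2661 Mb spanned by the lists. The quartiles were 546 and 1003 bp, and 306 regions (6.19%) reached 1500 bp. When the 25114 regions were divided by the span of their 8-cell and 16-cell peaks, the share found nowhere else was 40.4% under 500 bp, 30.7% from 500 bp, 23.4% from 750 bp, 15.1% from 1000 bp and 4.80% from 1500 bp upward, each class ending where the next begins. Over the same classes the share with a morula peak went from 44.1% to 91.5%, and that with a day 14 peak from 43.3% to 76.0%. A wide region has more bases in which another peak can overlap it, and how much of the trend that accounts for was not tested. The 8-cell-to-morula regions did not follow this order, with 15.3% in the narrowest class, 23.5% in the class from 1000 bp and 18.5% in the widest.

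**Figure D1:**
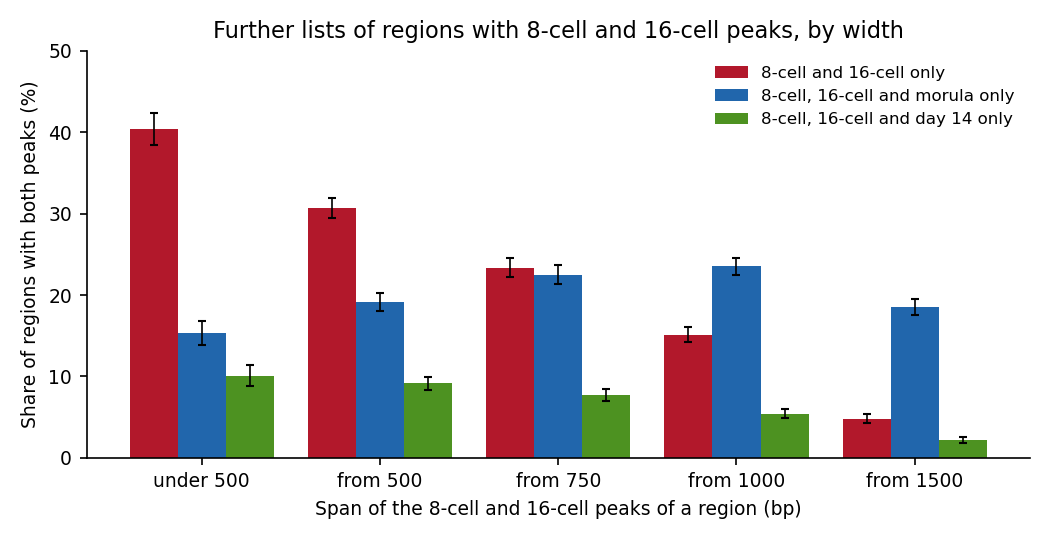
Share of the 25114 regions with 8-cell and 16-cell peaks (vertical axis, percent) that had no other list, a morula list and no further one, or the day 14 list and no further one, in 5 classes of the span of their 8-cell and 16-cell peaks (horizontal axis, bp); bars are shares and lines exact 95% intervals. The share with no other list goes from 40.4% in the narrowest class to 4.80% in the widest, and the share with day 14 only from 10.1% to 2.16%.

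At both stages the peaks in these regions were wider than peaks found at that stage alone and narrower than those of 8-cell-to-morula regions. The regions held 5036 of the 8-cell peaks (8.51%) and 5171 of the 16-cell peaks (6.81%). Their 8-cell peaks had a median width of 544 bp (interval 532 to 554 bp), between the 373 bp of peaks found at the 8-cell stage alone and the 629 bp of those in 8-cell-to-morula regions. For the 16-cell peaks the median was 433 bp (interval 424 to 442 bp), against 320 bp for peaks of the 16-cell stage alone and 656 bp (interval 643 to 671 bp) for those in 8-cell-to-morula regions. Over the whole lists the medians were 458 bp at the 8-cell and 409 bp at the 16-cell stage. Width bears on whether a peak overlaps one of another list, so this order is not separate from the rule. How much of it the rule accounts for was not tested.

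Within a region, the wider peak lay more often at the 8-cell stage. In 3068 of the 4945 regions (62.0%, interval 60.7% to 63.4%) the 8-cell peak was wider than the 16-cell peak, in 1866 (37.7%) it was narrower, and in 11 both were equal. The 8-cell-to-morula regions showed the opposite order, the 8-cell peak being wider in 46.5% (interval 45.1% to 47.9%) and the 16-cell peak in 53.4%. The 8-cell, 16-cell and day 14 regions were in between, at 56.8% (interval 54.3% to 59.3%). Where a list had several peaks in a region, their widths were summed. The summed 8-cell and 16-cell widths had medians of 553 and 451 bp in the 4945 regions. Over all 25114 regions with both peaks the medians were 717 and 704 bp. A 16-cell peak lay wholly inside the 8-cell peak in 29.9% of the 8-cell and 16-cell only regions and in 21.7% of the 8-cell-to-morula regions, and an 8-cell peak inside the 16-cell peak in 16.1% and 28.9%. The 8-cell peak was more than 2 times as wide in 938 regions, and the 16-cell peak in 331.

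At matched span the 8-cell peak was still the wider one in most of the regions found nowhere else, in all 5 classes. From the narrowest to the widest class the 8-cell peak was the wider one in 58.7%, 59.1%, 62.6%, 65.8% and 73.9% of the regions found nowhere else. Among 8-cell-to-morula regions the values were 55.6%, 46.9%, 44.7%, 45.4% and 46.4%, so that the opposite order was absent under 500 bp. The 8-cell, 16-cell and day 14 regions had 53.2%, 52.9%, 60.3%, 56.7% and 67.4%, which was below the other two under 500 bp and between them in the wider classes. The rule used only whether peaks were present, but width bears on whether peaks overlap, so the widths are not fully separate from it. Differences in depth between the 8-cell and 16-cell libraries bear on width too and cannot be told apart from the stage.

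**Figure D2:**
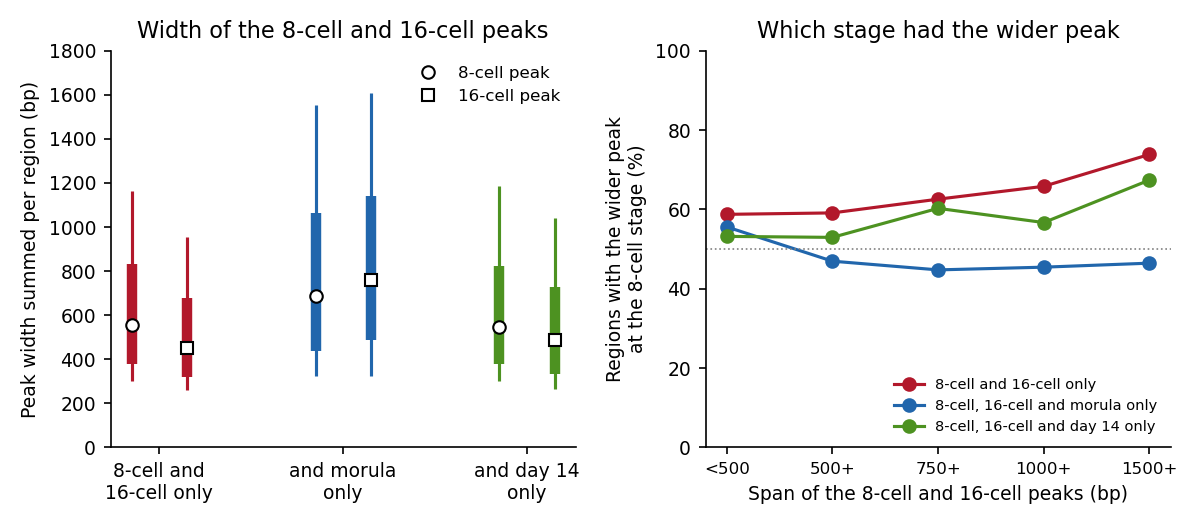
Left, width of the 8-cell (circles) and 16-cell (squares) peaks summed per region (bp) in regions with 8-cell and 16-cell peaks only, 8-cell-to-morula regions, and 8-cell, 16-cell and day 14 regions; symbols are medians, thick bars the quartiles and thin bars the 10th to 90th percentile. Right, share of regions whose 8-cell peak was the wider (percent) by span class; the 8-cell and 16-cell only regions lie above 50% in all 5 classes, and 8-cell-to-morula regions below it in all but the narrowest.

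The peaks of both stages overlapped over much of their length. The peaks of a region shared 327 bp at the median, and their centres were 131.5 bp apart (interval 127 to 135.5 bp). The shared part made up 52.5% (interval 51.5% to 53.1%) of the wider peak, 62.7% of the 8-cell peak and 79.7% of the 16-cell peak at the median. At least 50% of both peaks was shared in 2669 regions (54.0%), against 57.0% of the 8-cell-to-morula regions. At matched span the median shared part of the wider peak was close under 500 bp, at 70.0% against 70.4%. It was below that of the 8-cell-to-morula regions in every wider class. In order of span the values there were 52.7% against 58.1%, 44.8% against 52.5%, 43.7% against 51.6% and 40.3% against 50.7%. One peak of each list made up 4651 regions (94.1%), 203 held 1 peak of the 8-cell list and several of the 16-cell list, 79 the reverse and 12 several of both. At the edge of the rule, 372 regions shared under 100 bp and 43 under 10 bp.

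Some regions met or missed the rule by a base. A single base was shared by the peaks of 3 regions (UMD3.1): chr1:34442867-34443642, chr6:900339-901186 and chr28:9285370-9286150. Just outside the rule, a 16-cell peak and an 8-cell peak abutted without sharing a base at chr18:16870937-16871326 and chr18:16871327-16872210, and likewise at chr7:112597873-112598118 and chr7:112598119-112598479. A gap of 1 bp parted an 8-cell peak at chr10:10525508-10526102 from a 16-cell peak at chr10:10526104-10526428. Neighbouring peaks of the 2 stages, each found in no other list, lay under 250 bp apart in 427 places. In the other direction, 4752 regions were shut out by 1 further list, 23 of them by an overlap under 10 bp. The smallest such overlaps, 1 bp of a day 14 peak each, were at chr8:64453392-64454159, chr10:17364495-17365330 and chr17:74580316-74581141.

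All 30 chromosomes held such regions, and the X chromosome held few. Their density was 1.86 per Mb over the genome. It was highest on chromosome 3 (306 regions, 2.52 per Mb, 1.36 times the mean) and chromosome 2 (316 regions, 1.24 times), and lowest on X (117 regions, 0.786 per Mb, 0.423 times) and chromosome 22 (85 regions, 0.744 times). The X chromosome held 2.37% of the regions (interval 1.96% to 2.83%). This was below its share of 8-cell-to-morula regions, 4.77% (interval 4.20% to 5.39%), and above its share of 8-cell, 16-cell and day 14 regions, 0.958% (interval 0.537% to 1.57%). Regions of the 8-cell stage alone lay on X in 3.19% and those of the 16-cell stage alone in 2.59%. At matched span, the intervals of the 8-cell and 16-cell only regions and of 8-cell-to-morula regions did not overlap in the class from 500 bp (2.19% against 5.82%) and that from 750 bp (1.64% against 5.39%), and overlapped in the other 3 classes.

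Chromosomes 18, 19 and 25, which are rich in genes, took a middle place. They held 296 regions, 5.99% (interval 5.34% to 6.68%), against 3.32% (interval 2.85% to 3.85%) of the 8-cell-to-morula regions and 14.9% (interval 13.2% to 16.8%) of the 8-cell, 16-cell and day 14 regions. The share was 6.82% for the 8-cell stage alone, 5.04% for the 16-cell stage alone and 9.30% for all 25114 regions with both peaks. Density of the 8-cell and 16-cell only regions there was near the genome mean, at 0.856, 0.899 and 1.05 times it. Of regions with both an 8-cell and a 16-cell peak, the share found nowhere else was lowest on chromosome 18 (10.6%, interval 8.76% to 12.7%), chromosome 19 (13.3%) and X (14.5%). It was highest on chromosome 20, at 26.0% (interval 22.1% to 30.2%), and chromosome 12, at 24.2%. On every chromosome most regions with both peaks thus had a peak in another list as well. Regions with both peaks numbered 990 on chromosome 18 (66.0 Mb), 805 on chromosome 19 (64.0 Mb) and 807 on X (149 Mb), few for its length. Toward the chromosome ends the regions thinned out: the last 5 Mb of the autosomes held 3.48% (interval 2.98% to 4.04%) and the first 5 Mb 4.70%, each such set of ends making up 5.77% of autosome length. In the same order, regions of the 8-cell stage alone were at 4.64% and 5.29%. The thinning was not particular to the 8-cell and 16-cell only regions. The 8-cell-to-morula regions were at 3.04% (interval 2.57% to 3.56%) and 4.97% (interval 4.38% to 5.62%), with intervals overlapping theirs. Regions of the 16-cell stage alone had the reverse order, at 5.03% and 4.095%. The 8-cell, 16-cell and day 14 regions had the highest share of these classes in the last 5 Mb.

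**Figure D3:**
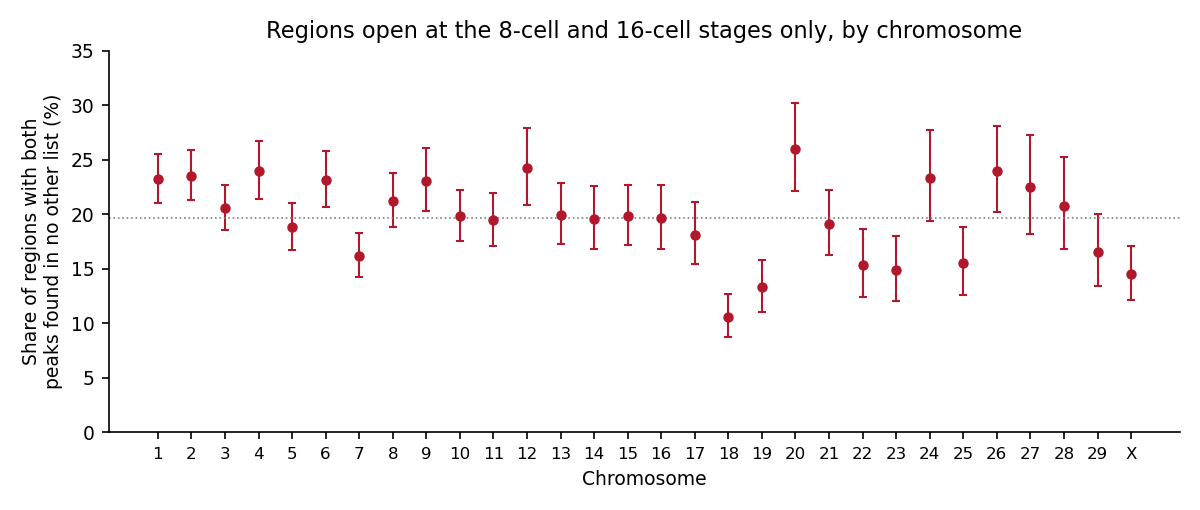
Share of regions with both an 8-cell and a 16-cell peak that were found in no other list (vertical axis, percent) for each of the 30 chromosomes; points are shares, lines exact 95% intervals and the dotted line the share over all chromosomes, 19.7%. Chromosomes 18 and 19 lie lowest, at 10.6% and 13.3%, and chromosome 20 highest, at 26.0%.

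Peaks of other stages often lay close by. The nearest peak of any of the 9 other lists was 2.48 kb away at the median, and 428 regions (8.66%) had one within 250 bp, 1391 (28.1%) within 1 kb and 4128 (83.5%) within 10 kb. Only 21 regions had none within 50 kb. A day 14 peak was the nearest for 2701 regions (54.6%), a morula peak for 1486 (30.1%) and an in vivo morula peak for 576 (11.6%), an order that follows list length. Within 1 kb, 753 regions (15.2%) had a peak of one or both morula lists.

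For the morula and day 14 lists, these median distances were within 1 kb of those of regions seen at one of the stages alone. The nearest morula peak was 8.87 kb away (interval 8.42 to 9.36 kb), against 9.65 kb (interval 9.39 to 9.91 kb) for 8-cell only and 8.81 kb (interval 8.59 to 9.06 kb) for 16-cell only regions. For the in vivo morula list the medians were 17.6, 17.5 and 17.5 kb. The nearest day 14 peak was 4.40 kb away (interval 4.15 to 4.64 kb), against 4.03 kb (interval 3.91 to 4.14 kb) and 3.66 kb (interval 3.56 to 3.76 kb), and 5.21 kb (interval 4.93 to 5.48 kb) for 8-cell-to-morula regions, which by rule overlap no day 14 peak. With peaks of at least 329 bp, which leaves fewer day 14 peaks, the value for the 8-cell and 16-cell only regions was 17217.5 bp. In each of the 5 width classes the day 14 intervals of the 8-cell and 16-cell only regions and of the 8-cell only regions overlapped. Against the 16-cell only regions they did not overlap under 500 bp (4.45 kb, interval 3.97 to 4.88 kb, against 3.65 kb, interval 3.53 to 3.74 kb) and in the class from 750 bp (4.49 kb, interval 4.03 to 5.15 kb, against 3.57 kb, interval 3.03 to 3.98 kb), and overlapped in the other 3.

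**Figure D4:**
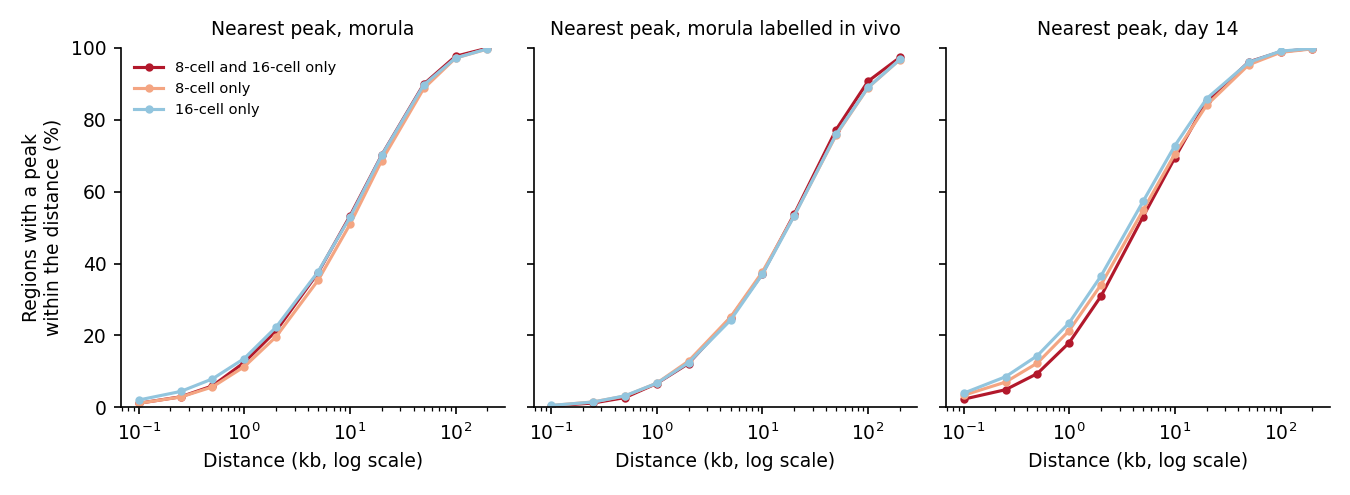
Cumulative share of regions (percent) with a peak of the morula, in vivo morula or day 14 list within the distance on the horizontal axis (kb, log scale), for regions found at the 8-cell and 16-cell stages only, at the 8-cell stage only and at the 16-cell stage only. The in vivo morula curves lie close together, whereas the day 14 curves differ at short distance. A day 14 peak lay within 1 kb of 890 of the 4945 regions (interval 16.9% to 19.1%). This was below the 21.4% of 8-cell only and 23.5% of 16-cell only regions, whose intervals did not overlap it. Within 250 bp the day 14 shares were 4.93%, 7.05% and 8.53%, and the morula shares 2.95%, 2.90% and 4.44%.

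Regions found at the 8-cell and 16-cell stages only often had another of their kind nearby. Within 10 kb of another such region were 868 of them (17.6%, interval 16.5% to 18.6%), whereas one lay within 10 kb of 14.3% (interval 12.6% to 16.1%) of the 8-cell, 16-cell and day 14 regions, 13.1% (interval 12.2% to 14.1%) of the 8-cell-to-morula regions, 11.9% of the 8-cell only and 7.94% of the 16-cell only regions. Nearness to their own kind was not particular to them, since 19.9% of the 8-cell-to-morula regions had another of that class within 10 kb. An 8-cell only region lay within 10 kb of 40.2% (interval 38.9% to 41.6%) of the 8-cell and 16-cell only regions and of 34.5% (interval 33.2% to 35.8%) of the 8-cell-to-morula regions. For 16-cell only regions the order was the reverse, at 33.1% (interval 31.8% to 34.4%) and 35.5% (interval 34.2% to 36.8%), with overlapping intervals. The classes differ in number, width and chromosome, and these shares were not matched for any of them.

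About as many regions stood alone as in groups. The next region was 103 kb away at the median (interval 97.8 to 113 kb), or 244 kb among regions whose peaks cover 50% of each other, and 10% of the regions had their neighbour beyond 616 kb. Joined where less than 100 kb apart, 2434 regions (49.2%) formed 971 runs and 2511 stood alone. Runs of 5 or more numbered 42 and held 240 regions. Of 2678 windows of 1 Mb, 684 (25.5%) had none and 208 had 5 or more.

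The fullest window was on chromosome 8 between 80 and 81 Mb, with 12 regions among 25 that held both an 8-cell and a 16-cell peak. On chromosome 1 between 150 and 151 Mb there were 11 among 30. The next 4 windows had 10 regions each, on chromosome 2 (115 to 116 Mb), chromosome 9 (36 to 37 Mb), chromosome 12 (3 to 4 Mb) and chromosome 27 (27 to 28 Mb). On chromosome 27 these were 10 of only 13 regions with both peaks. The longest runs held 9 regions over 76.0 kb at chr8:80844211-80920177, 9 over 260 kb at chr27:27662055-27922027 and 8 over 186 kb at chr3:3026295-3212779. In the run on chromosome 27 the regions were 438 to 1015 bp wide and took up 2.43% of its length. There, 16 regions had a 16-cell peak and 12 an 8-cell peak. The run on chromosome 3 spanned 62 regions of any kind, against 31 on chromosome 8 and 29 on chromosome 27. Of the 62, 41 held an 8-cell and 30 a day 14 peak.

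The run on chromosome 8, the shortest of these 3, held the widest region of all, chr8:80875710-80882782, 7073 bp wide. It consisted of a single 8-cell peak of 7002 bp, the 8th widest of the 8-cell list, and 4 separate 16-cell peaks of 548, 384, 382 and 1149 bp, so that one broad 8-cell peak faced several narrow ones at the next stage. The other 8 regions of the run were 478 to 1472 bp wide, among them chr8:80848638-80850109 with an 8-cell peak of 1472 bp over a 16-cell peak of 226 bp, and chr8:80844211-80844688 with peaks of 476 and 478 bp. The widest 8-cell peak of the series, chr8:80832687-80843559, ended 32150 bp before the widest region and belongs to no region described here, since the 4-cell, morula and day 14 lists have peaks in it as well. Within 60 kb on either side of the widest region's centre lay 36 of the 8-cell peaks, against a mean of 2.67 per 120 kb over the genome, and 29 of the 16-cell peaks, against 3.42. Morula peaks numbered 11 (mean 4.01), in vivo morula peaks 6 (mean 2.57) and day 14 peaks 11 (mean 16.8). The MII, 2-cell, blastocyst and in vivo blastocyst lists had no peak there. Their means were 0.0329, 0.119, 0.153 and 0.117, so that none is the usual count. The GV and 4-cell lists had 1 each, against means of 0.198 and 0.262. The 8-cell peaks covered 54767 bp of this window, the 16-cell peaks 21643 bp and the morula peaks 10741 bp. This place was singled out after its values were seen.

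Among the 20 widest regions, which were 2517 to 7073 bp wide, the 8-cell peaks were wider in 18 and the 16-cell peaks in 2. Chromosome 8 held 6 of the 20, and chromosomes 3 and X 3 each. Of all 306 regions of at least 1500 bp, chromosome 8 held 14. After the widest came chr8:99330176-99334273 (4098 bp), with 2 of the 8-cell and 4 of the 16-cell peaks, and chrX:124939170-124942899 (3730 bp), where a 16-cell peak of 1476 bp bridged 8-cell peaks of 1503 and 2055 bp. Next were chrX:34545154-34548475 (3322 bp), 32063 bp from the nearest peak of any other list, and chr8:56304843-56308061 (3219 bp), in which an 8-cell peak as wide as the region held a 16-cell peak of 789 bp. The sixth, chr11:90819611-90822795 (3185 bp), was an exception, with 2581 bp of 16-cell against 1737 bp of 8-cell peaks. The other exception was chr1:89839549-89842453 (2905 bp), with 2646 against 1612 bp.

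Several of the widest regions had peaks of later stages at their sides. A morula peak lay 417 bp from chr3:14291416-14294534 (3119 bp) and 430 bp from chr3:22606778-22609679 (2902 bp), and a day 14 peak 43 bp from chr24:35066661-35069404 (2744 bp). A day 14 peak lay 858 bp from chr3:46115439-46118151 (2713 bp) and a morula peak 918 bp from chr8:94688300-94690867 (2568 bp). Of the 20, these 5 had a peak of another list within 1 kb and 13 within 5 kb. Such neighbours were not particular to the widest regions, since 28.1% of all 4945 had one within 1 kb and 68.6% within 5 kb. Others of the 20 were far from any: chr26:5081550-5084553 (3004 bp), an 8-cell peak of that width over a 16-cell peak of 280 bp, lay 21851 bp from the nearest. The remaining ones were chr12:48894978-48898061, chrX:122705628-122708468, chr9:57909883-57912610, chr29:14239299-14242018, chr8:21625489-21628112, chr5:33342501-33345085 and chr8:28998450-29000966, which were 2517 to 3084 bp wide.

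The widest region of each chromosome was between 1710 and 7073 bp wide, and its 8-cell peak was the wider in 24 of 30. Of these, 11 are named above. On further chromosomes an 8-cell peak of the region's full width covered a short 16-cell peak: chr2:132397544-132399891 (2348 bp over 320 bp), chr7:46147947-46150271 (2325 over 201 bp), chr14:17136387-17138522 (2136 over 308 bp) and chr19:16178848-16180625 (1778 over 348 bp). More even pairs were chr6:12725340-12727268 (1808 and 1378 bp) and chr23:39941993-39943976 (1984 and 1563 bp). The reverse order was found at chr21:14176958-14179399 (652 against 2442 bp), chr25:24859204-24860913 (289 against 1710 bp), chr28:22788784-22790641 (748 against 1858 bp) and chr16:27209556-27211646 (1441 against 1848 bp). The others were chr4:83678888-83681387, chr10:38155747-38158237, chr13:27672974-27675401, chr15:46881744-46883927, chr17:72980597-72982662, chr18:64575704-64577872, chr20:3107452-3109798, chr22:20869972-20872397 and chr27:7901390-7903589, each with the wider peak at the 8-cell stage.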

How the data were processed

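Peaks of the libraries of a stage were merged by the authors, per the series description, and deposited as 1 list per group with chromosome, start and end. Build UMD3.1 and the tools MACS2, HOMER, bedtools and Bowtie2 2.3 are named, with no roles, per the submitters' processing notes. The sources used here give no calling threshold, read shift or merging rule, and each can change the number and width of peaks. Starts were read as counted from 0 and are printed counted from 1. The lists do not state this, so starts may be off by 1 base. Peaks read here as abutting may then share a base, which would change membership at the edge of the rule.

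Union regions were built with pandas 2.3.3 and numpy 2.4.6 in Python 3.11.15, intervals with scipy 1.17.1 and figures with matplotlib 3.10.9. The 482097 regions and 4945 members equalled those of bedtools 2.31.1, and in simulated lists with 6000 regions all 526 planted members were found. Distances are bases between edges. Chromosome lengths are the last position in any list. Shares have exact Clopper-Pearson intervals, and medians have intervals from the binomial order of the values. Regions named in the text are the 20 widest, the widest of each chromosome, those at the limits of the rule, the fullest windows (ties included) and the 3 longest runs. The rule, the members and the comparison classes were chosen with earlier results of these data known. Sequence and genes of UMD3.1 were not used here.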

Additional observations from a re-analysis of the deposited data

How the results depend on the processing

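Each list merges its libraries, so none could be left out, and no paired analysis was possible because 1 list per group carries no replicate. Sequence composition had been planned and was not run without a genome of the build. The number of regions was 2669 when both peaks had to cover 50% of each other and 7958 without the morula list lacking the in vivo label. It was 6505 without the day 14 list and 4202 with peaks of at least 329 bp, within 1.5 times 4945. Joining peaks closer than 500 bp, which is the same as widening them by 250 bp on each side, gave 4424 regions. Of the 4945, 3984 (80.6%) overlapped one of these, and 3130 (63.3%) overlapped one built from peaks of at least 329 bp.

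The 50% requirement was applied to the regions found nowhere else and not to all 25114 with both peaks. With joining, with 50% shared and with peaks of at least 329 bp, the share of regions with both peaks was 17.6%, 10.6% and 21.4%. In the same order the median width was 816, 630 and 858.5 bp and the distance to the next region 132, 244 and 116 kb. The shared part of the wider peak was 49.3% with joining and 57.2% with peaks of at least 329 bp. Under these 2 settings the nearest morula peak lay 10621 and 10031.5 bp away and the nearest day 14 peak 5719 and 17217.5 bp. The last value is more than 1.5 times the main one, and its filter leaves fewer day 14 peaks. The 8-cell peak was the wider in 57.0% with 50% shared and in 58.4% with peaks of at least 329 bp, both above 50%. The other 13 of 32 values, among them all 3 for the X chromosome, stayed within the interval of the main value or, for counts, within 1.5 times it. Alternatives for spacing, the shared part and the wider peak were chosen after seeing the data.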
